A study of Homo sapiens with 8 samples.

Results

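JQ1 was compared with its vehicle in SUM159 cells, an established human triple-negative breast cancer line. The comparison used the 697 cells of the JQ1-A library, selected in JQ1 alone within the paclitaxel experiment, and the 459 cells of the DMSO library of that experiment, 1156 of the 5738 cells in the series. Cells were assigned to a library by the identity that the deposited cell metadata gives each barcode, and all 18955 genes of the count table were considered. The cells of every library carried a lentiviral DNA barcode library used to follow clones. JQ1-A cells had been kept in 100 nM JQ1 and DMSO cells in vehicle, for up to 18 passages, with no paclitaxel or palbociclib in either. Each library pooled the cells of 3 replicate cultures, and no label gives the culture of a cell. Each treatment had 1 library within an experiment. Every difference between JQ1-A and DMSO below therefore compares 2 libraries, with no replicate check and no test. The pre-treatment library (602 cells, taken before any drug) and the JQ1-B library (868 cells, 100 nM JQ1, from the palbociclib experiment) were set beside them, as the spread between a pair of libraries without drug and between a pair with JQ1.

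JQ1 occupies the acetyl-lysine pockets of the BET family of bromodomain proteins. These proteins read acetylated histones at promoters and enhancers and recruit Mediator and the elongation kinase P-TEFb, and genes driven by strong enhancers or by inducible factors such as NF-kB are known to depend on them. HEXIM1, an inhibitor of P-TEFb, is a common marker of BET inhibition because its mRNA rises when these proteins are displaced.

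The JQ1-A library held 16181822 unique molecular identifiers (UMIs, 1 for each captured mRNA) and the DMSO library 10621159. Median UMIs per cell were 21529 and 20664, median detected genes 3662 and 4014, and median mitochondrial shares 5.35% and 3.81%, in that order. The study's cell filter would remove 38 JQ1-A cells (12 under 1% mitochondrial UMIs, 18 over 15%, 23 under 2000 genes, some on several counts) and 7 DMSO cells. No cell barcode occurred in both libraries. Mesenchymal and simple-epithelial markers were both present in each library. VIM (intermediate filament) was at 4080 CPM (a gene's UMIs per 1000000 UMIs of the library) in DMSO and 4096 CPM in JQ1-A, and CD44 at 293 and 315 CPM. The simple-epithelial keratins KRT7 (929 CPM in DMSO and 501 CPM in JQ1-A), KRT18 (465 and 368 CPM) and KRT8 (445 and 320 CPM) were abundant too. The receptor genes ESR1 and PGR and the epithelial adhesion gene EPCAM were each under 1 CPM in both libraries, CDH1 was not among the genes used here, and ERBB2 was at 7.34 CPM in DMSO and 10.1 CPM in JQ1-A. Leukocyte PTPRC was also under 1 CPM, and PDGFRB was at 3.77 CPM in DMSO and 3.65 CPM in JQ1-A.

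A wide set of genes differed between the 2 libraries, with lower IL32, a cytokine gene, and higher NR2F1, an orphan nuclear receptor gene, at the ends of the range. Among 4832 genes of at least 20 CPM in the higher library, 51 (1.06%) were at least 2-fold higher in JQ1-A and 438 (9.06%) at least 2-fold lower. The split between higher and lower genes moved with the scaling. The median gene had a JQ1-A over DMSO ratio of 0.777 (-0.36 on the log2 scale), and 76.3% of genes lay below 1, while the 151 genes of at least 1000 CPM held 51.9% of DMSO UMIs and 61.6% of JQ1-A UMIs. Relative to the median gene, 166 genes (3.44%) were at least 2-fold higher and 112 (2.32%) at least 2-fold lower, and gene lists below are given on this relative scale. In sums over a library, fewer cells with a gene and less RNA of it per cell cannot be told apart, and shares of cells are given beside the sums for the genes at the ends of the range.

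**Figure D1:**
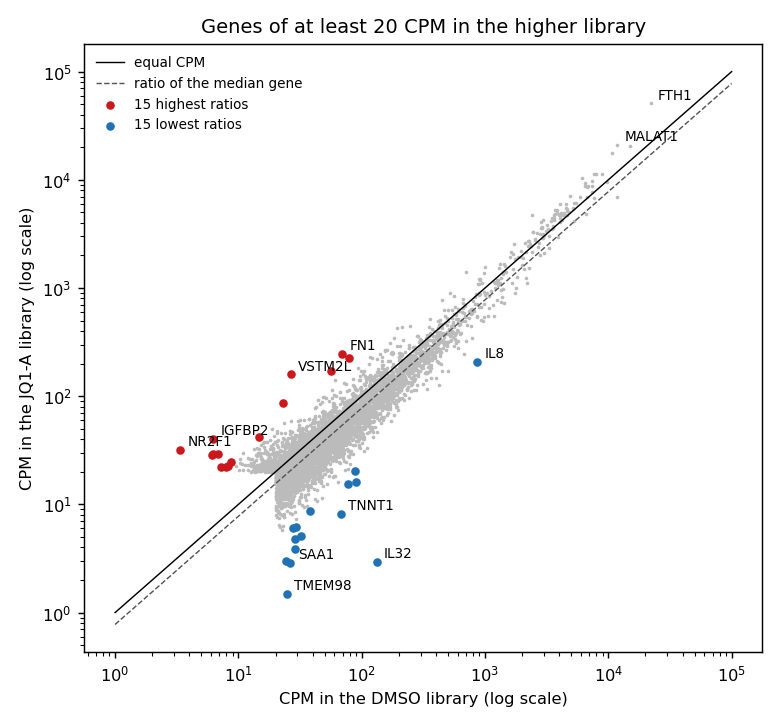
CPM of each gene of at least 20 CPM in the higher library, DMSO on the x axis and JQ1-A on the y axis, both on log scales, 1 point for each gene. The bulk of genes follows the dashed line of the median gene (ratio 0.777) below the line of equal CPM, while FTH1 and MALAT1 lie above it, and IL32 and NR2F1 lie farthest from the cloud.

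Abundant mRNAs took a larger share of UMIs in JQ1-A. FTH1, the heavy chain of the iron store ferritin, made up 2.21% of UMIs in DMSO and 5.10% in JQ1-A, with 2.23% in pre-treatment and 5.0% in JQ1-B. FTL, the ferritin light chain, held 1.06% in DMSO and 1.75% in JQ1-A, and MALAT1, a nuclear noncoding RNA, held 1.18% and 2.11%. The 79 cytosolic ribosomal protein genes together held 28.9% of DMSO UMIs and 33.1% of JQ1-A UMIs, and the 13 mRNAs of the mitochondrial genome 3.73% and 5.44%. Ferritin, ribosomal protein and mitochondrial genes have many near-identical pseudogene copies, so their counts carry that uncertainty. In the other direction, TMSB4X (thymosin beta 4, which binds actin monomers) held 1.17% in DMSO and 0.687% in JQ1-A.

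The 15 genes with the lowest ratios included cytokine, protease and acute-phase genes. IL32, a proinflammatory cytokine (chromosome 16, 3115298 to 3132193, GRCh37), was at 211 CPM in pre-treatment, 132 CPM in DMSO, 2.97 CPM in JQ1-A and 4.88 CPM in JQ1-B. Both JQ1 libraries thus lay far below both libraries without drug. JQ1-A was 44.6-fold below DMSO (95% exact conditional binomial interval 33.4 to 60.7, which like all intervals here covers counting error only). In cells thinned to 10000 UMIs, IL32 was detected in 62.5% of DMSO cells (57.8 to 67) and in 2.15% of JQ1-A cells (1.18 to 3.59). With all UMIs these shares were 82.5% and 4.15%. No cell type that lacks the gene was present, so the share that free RNA gives was not measured.

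TMEM98, a membrane protein gene, was at 24.7 CPM in DMSO and 1.48 CPM in JQ1-A, 16.6-fold lower (10.9 to 26.4), with 26.8 CPM in pre-treatment and 5.12 CPM in JQ1-B. SAA1, an acute-phase apolipoprotein, was at 26.5 CPM in DMSO and 2.90 CPM in JQ1-A, 9.11-fold lower (6.67 to 12.7). It was at 65.5 CPM in pre-treatment, so that the 2 libraries without drug differed by more for this gene than for most others. TNNT1, which encodes slow skeletal troponin T, was at 67.5 CPM in DMSO and 8.16 CPM in JQ1-A, 8.28-fold lower (6.87 to 10.0).

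PRSS23 (a secreted serine protease) was at 24.3 CPM in DMSO and 3.03 CPM in JQ1-A. NUPR1 (a stress-induced chromatin protein) was at 32.5 and 5.13 CPM, and CASP1, the protease that matures IL1B and IL18, at 28.8 and 4.82 CPM. The other genes of the lowest 15 were SFTA1P, LY6K, PIR, STEAP1, PTN, SPANXC, SLC14A1 and IL8. SPANXC has X-linked copies of almost the same sequence, and reads may be split among them. All 15 were lower in both JQ1 libraries than in both libraries without drug. Relative to the median gene, 37.9% of all genes compared were lower in this way. The 15 were chosen for low JQ1-A over DMSO ratios, which meets part of that condition.

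The 15 genes with the highest ratios included several secreted proteins. NR2F1, an orphan nuclear receptor (chromosome 5, 92918928 to 92930317, GRCh37), was at 1.63 CPM in pre-treatment, 3.39 CPM in DMSO, 32.0 CPM in JQ1-A and 28.9 CPM in JQ1-B. The JQ1-A value was 9.44-fold that of DMSO (6.73 to 13.6). NR2F1 was detected in 2.92% of thinned DMSO cells (1.56 to 4.94) and in 24.0% of thinned JQ1-A cells (20.8 to 27.5).

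VSTM2L, an immunoglobulin-domain protein gene, had 26.6 CPM in DMSO and 159 CPM in JQ1-A, a ratio of 6.0 (5.3 to 6.81), and detected in 21.8% and 68.5% of thinned cells. IGFBP2, a secreted carrier of insulin-like growth factors, was at 6.21 CPM in DMSO and 40.2 CPM in JQ1-A, with 0.709 CPM in pre-treatment and 21.9 CPM in JQ1-B. FN1, fibronectin, had 69.6 CPM in DMSO and 247 CPM in JQ1-A, a ratio of 3.55 (3.28 to 3.84), with 56.1 CPM in pre-treatment and 146 CPM in JQ1-B. The 2 JQ1 libraries were farther apart for IGFBP2, FN1 and STAC2 (87.3 CPM in JQ1-A, 43.9 CPM in JQ1-B) than for NR2F1 or VSTM2L.

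MRC2, a collagen uptake receptor, was at 6.21 CPM in DMSO and 29.5 CPM in JQ1-A, and HTRA1, a secreted serine protease, at 6.87 and 29.2 CPM. PEG10, an imprinted retrotransposon-derived gene, was at 55.9 and 172 CPM. IRS2, an adaptor of the insulin and IGF1 receptors, was at 8.29 and 22.8 CPM, with 13.1 CPM in pre-treatment and 14.4 CPM in JQ1-B, which were close to each other. PIK3R3, a regulatory subunit of PI3-kinase, was at 7.25 and 22.2 CPM. IFITM10, STAC2, CXXC5, HCFC1R1, ASS1 and ZNF22 completed the 15. All 15 were higher in both JQ1 libraries than in both libraries without drug. Relative to the median gene, 38.6% of all genes compared were higher in this way. These 15 too were chosen by their JQ1-A over DMSO ratios.

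**Figure D2:**
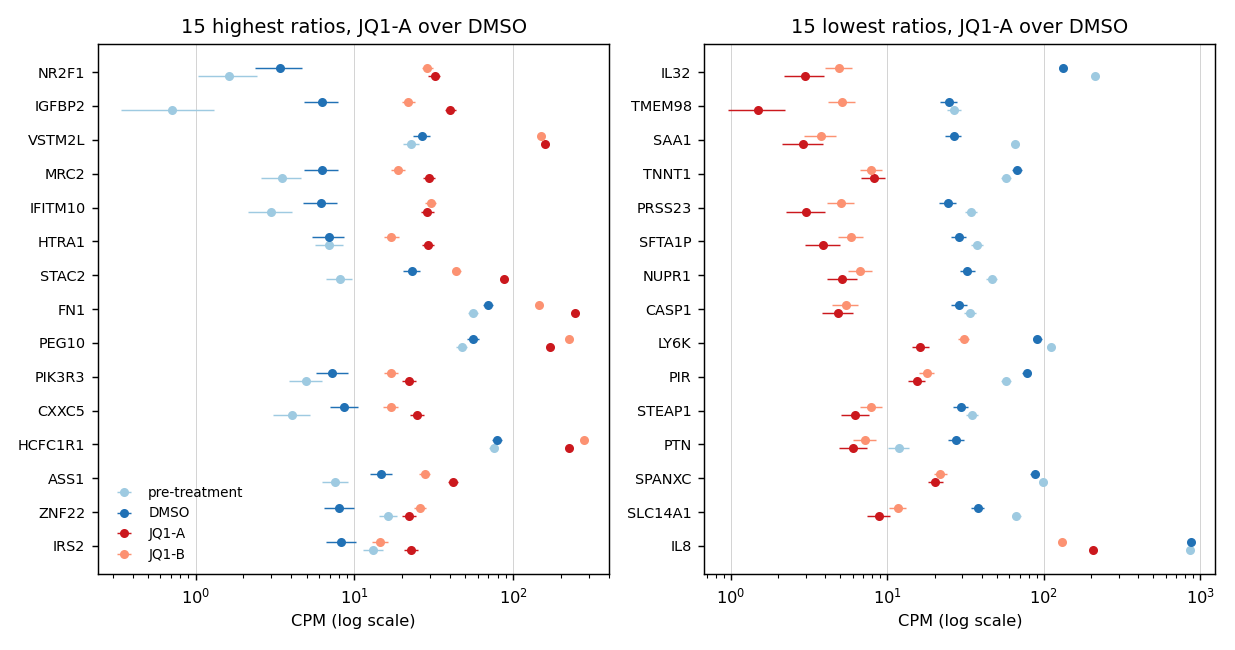
CPM on a log scale of the 15 genes with the highest (left) and the 15 with the lowest (right) JQ1-A over DMSO ratios, in the pre-treatment, DMSO, JQ1-A and JQ1-B libraries. Points are library values and bars are 95% exact Poisson intervals of counting error. For all 30 genes the 2 JQ1 libraries lie on 1 side of the 2 libraries without drug. Over all genes compared, relative to the median gene, 38.6% lie above and 37.9% below in this way.

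The size of the comparison can be read against a pair of libraries without drug, which differ in passaging in vehicle, and a pair with JQ1. DMSO and pre-treatment differed by at least 2-fold, relative to the median gene, in 28 of 4794 genes (0.584%), and JQ1-B and JQ1-A in 6 of 4313 (0.139%). The median absolute relative log2 ratio was 0.328 for JQ1-A over DMSO, 0.141 for DMSO over pre-treatment and 0.110 for JQ1-B over JQ1-A. Of the 166 higher genes, 163 (98.2%) were higher in both JQ1 libraries than in both without drug, and of the 112 lower genes, 110 (98.2%) were lower in both. Over all 4832 genes, 38.6% were higher and 37.9% lower in both JQ1 libraries. The 166 and 112 genes were chosen by JQ1-A against DMSO, so part of the condition was met by the choice. Their shares and those over all genes are therefore not like for like. JQ1-B over pre-treatment shares no library with JQ1-A over DMSO. Of its 4834 genes compared, 188 were at least 2-fold higher and 147 lower, relative to the median gene. Of these lists, 91 higher genes were shared (54.8% of the JQ1-A list and 48.4% of the JQ1-B list), as were 68 lower genes (60.7% and 46.3%). No gene was 2-fold higher in 1 pair and 2-fold lower in the other.

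Genes of the BET family and known markers of the drug were examined next. BRD2 was at 79.9 CPM in DMSO and 91.8 CPM in JQ1-A, and BRD3 at 19.9 and 18.8 CPM. BRD3 is lower on the CPM scale and higher by 0.28 on the log2 scale relative to the median gene, and its counting interval held a ratio of 1. HEXIM1 was at 17.4 CPM in pre-treatment, 16.1 in DMSO, 30.1 in JQ1-A and 31.7 in JQ1-B. Both JQ1 libraries were above both others, and JQ1-A was 1.87-fold above DMSO, short of 2-fold on the CPM scale and 1.27 log2 units above the median gene. The histone genes HIST1H1C (37.1 CPM in DMSO, 61.2 in JQ1-A) and HIST1H2BK (24.9 and 39.4 CPM), also listed as response markers, were likewise over 2-fold higher only on the relative scale. Their pre-treatment values, 64.2 and 43.5 CPM, were above those of JQ1-A, so that on the CPM scale JQ1-A lay between the 2 libraries without drug. MED1, a Mediator subunit, was at 17.0 and 18.3 CPM.

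NF-kB target genes as a group were lower in JQ1-A. Of 15 members compared, IL32 among them, 8 were at least 2-fold lower on the CPM scale (9.06% of all genes were) and 0 higher. Relative to the median gene, 3 were 2-fold lower (2.32% of all genes were) and the list's median was -0.67 log2, where the median of all genes is 0 by construction. In JQ1-B over pre-treatment the list's median was -1.25 log2. IL32, NFKB1, TNFAIP3, IRF1 and CSF1 reached 20 CPM in DMSO only, so the filter fixed their direction on the CPM scale. NFKBIA, IL8, CXCL2 and SOD2 (231 CPM in DMSO and 113 CPM in JQ1-A) were over 20 CPM in both libraries and over 2-fold lower. The other members over 20 CPM in both were lower by less than 2-fold on the CPM scale. IL8, a neutrophil chemokine, was at 867 CPM in DMSO and 207 CPM in JQ1-A, with 862 CPM in pre-treatment and 131 CPM in JQ1-B, and was detected in 86.1% of thinned DMSO cells and 44.5% of thinned JQ1-A cells. CXCL2, a related chemokine, was at 504 and 170 CPM, with 65.9 CPM in JQ1-B. NFKBIA, the inhibitor that NF-kB induces on itself, was at 334 and 141 CPM, and IRF1, an inflammatory transcription factor, at 40.9 and 16.9 CPM. Other members lay near the median gene in JQ1-A over DMSO. IL6 was at 88.5 CPM in DMSO and 70.6 CPM in JQ1-A, CXCL3 at 65.3 and 55.4 CPM, and IER3, an early response gene, at 1114 and 942 CPM, and relative to the median gene these 3 were higher by 0.04, 0.13 and 0.12 log2. In the other pair they were lower, with IL6 at 90.5 CPM in pre-treatment and 47.4 CPM in JQ1-B, CXCL3 at 96.0 and 27.2 CPM, and IER3 at 954 and 716 CPM.

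The promoters of 4 list members are shown because the members differ in their ratios and each holds a kappaB consensus match. IL32, CXCL2 and NFKBIA were over 2-fold lower in JQ1-A than in DMSO, and IL6 was not. They were chosen after their values were seen. IL32 had 2 listed promoters, of which 1 held a match and is shown. Of 13 compared members with a listed promoter, 10 held a match in at least 1 of theirs. IL8 and SOD2, also over 2-fold lower, held none. The sequences are 250 bases before to 50 bases after a RefSeq transcription start (GRCh38.p14), 5′ to 3′ along the gene, with letters that match the 10-letter kappaB consensus on either strand in capitals. In IL32 and CXCL2 the capitals cover a pair of overlapping matches on opposite strands.
IL32, chr16:3065153-3065452, plus strand: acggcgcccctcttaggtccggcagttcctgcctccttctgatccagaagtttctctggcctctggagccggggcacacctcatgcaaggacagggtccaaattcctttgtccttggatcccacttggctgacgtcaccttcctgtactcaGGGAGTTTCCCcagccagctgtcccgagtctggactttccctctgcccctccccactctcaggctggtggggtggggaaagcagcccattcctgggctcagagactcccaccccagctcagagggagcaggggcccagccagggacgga
CXCL2, chr4:74099146-74099445, minus strand: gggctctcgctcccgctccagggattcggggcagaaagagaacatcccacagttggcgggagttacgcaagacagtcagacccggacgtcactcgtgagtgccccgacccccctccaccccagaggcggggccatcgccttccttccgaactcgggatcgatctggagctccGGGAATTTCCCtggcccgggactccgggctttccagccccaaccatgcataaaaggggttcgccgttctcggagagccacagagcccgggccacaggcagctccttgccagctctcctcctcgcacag
NFKBIA, chr14:35404700-35404999, minus strand: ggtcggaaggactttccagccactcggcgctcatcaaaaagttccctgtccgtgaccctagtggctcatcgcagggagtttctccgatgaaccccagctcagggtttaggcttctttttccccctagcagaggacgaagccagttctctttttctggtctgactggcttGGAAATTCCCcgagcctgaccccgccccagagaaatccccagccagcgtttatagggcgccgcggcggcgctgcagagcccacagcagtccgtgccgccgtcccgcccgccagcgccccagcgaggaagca
IL6, chr7:22726950-22727249, plus strand: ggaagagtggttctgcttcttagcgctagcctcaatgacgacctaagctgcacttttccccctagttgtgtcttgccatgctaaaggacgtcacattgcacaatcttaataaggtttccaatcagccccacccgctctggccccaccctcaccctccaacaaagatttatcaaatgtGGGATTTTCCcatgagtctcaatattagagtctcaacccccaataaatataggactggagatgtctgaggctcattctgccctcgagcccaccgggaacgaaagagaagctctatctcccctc
The consensus occurred in 18 of 37 listed promoters of the 25 list genes with an entry (48.6%) and in 11.3% of the 35116 promoters of the table. The list was built from known NF-kB targets, and a match is a description of letters, not a binding site.

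Interferon-stimulated genes were lower as well, with 11 of 12 compared members below the median gene and a median of -0.63 log2. ISG15, a ubiquitin-like modifier, was at 111 CPM in DMSO and 33.2 CPM in JQ1-A, and PSMB8, an immunoproteasome subunit, at 101 and 37.2 CPM. IFITM2 (70.3 and 27.0 CPM) and IFITM3 (334 and 163 CPM), antiviral membrane proteins of near-identical sequence, may share reads. Class I antigen presentation genes overall lay at the median gene (-0.06 log2, 7 of 13 below), although PSME2, a proteasome activator subunit, was at 226 and 103 CPM. Of the acute-phase list, SAA1 and PTX3 (36.8 CPM in DMSO, 12.4 in JQ1-A) were the 2 members expressed high enough to compare. Both were over 2-fold lower (9.06% of all genes were at least 2-fold lower on the CPM scale). They reached 20 CPM in DMSO only, so the filter fixed their direction, and SAA1 is also among the 15 lowest ratios.

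Genes of proliferation were lower in JQ1-A, and the shares of cells in each phase call differed. The S-phase genes of Seurat had a median of -0.56 log2 relative to the median gene, with 21 of 23 compared members below it, DNA replication genes -0.33 (23 of 29), mitosis genes -0.30 (28 of 34) and the G2/M genes of Seurat -0.18 (37 of 47). PCNA, the replication clamp, was at 120 CPM in DMSO and 51.7 CPM in JQ1-A, and CDC6, a licensing factor, at 35.0 and 14.7 CPM. CCNB1, cyclin B1, was at 240 and 97.3 CPM, and AURKB, a mitotic kinase, at 66.8 and 28.2 CPM. In cells thinned to 10000 UMIs (650 JQ1-A and 445 DMSO cells), 43.7% of JQ1-A cells were called G1 (39.8 to 47.6) and 18.4% of DMSO cells (14.9 to 22.3). The S-phase share was 27.2% in JQ1-A and 47.4% in DMSO, and the G2/M share 29.1% and 34.2%. Scores lay within 0.05 of a boundary in 46.5% of JQ1-A cells and 44.9% of DMSO cells, and a phase call is not a measure of whether a cell divides. Free RNA of these genes enters the scores, and its part was not tested.

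The level of the proliferation lists differed between phase calls. Among cells called G2/M only, the mitosis list lay at -0.06 log2 and the DNA replication list at -0.06, among cells called S at -0.38 and -0.17, and among cells called G1 at -0.82 and -0.41. The calls were made from proliferation genes, PCNA, CDC6 and AURKB among them. Levels of such genes within a call are therefore partly set by the call. Whether the difference is absent in cycling cells was not tested. The NF-kB list lay at -0.77 to -0.79 in each of the 3 phases, against -0.67 over all cells. The collagen and matrix list lay at 0.61 to 0.71, closer to the median gene than its 0.85 over all cells.

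Of the cyclin D to RB pathway, 9 genes were compared, with a median of -0.17 log2 on the CPM scale and 0.20 relative to the median gene. CDKN1A, the CDK inhibitor p21, was at 31.3 CPM in DMSO and 51.2 CPM in JQ1-A, and CCND1, cyclin D1, at 181 and 253 CPM. MYC, a transcription factor gene known for its dependence on BET proteins, was at 356 CPM in DMSO and 522 CPM in JQ1-A, with 263 CPM in pre-treatment and 401 CPM in JQ1-B. JQ1-A was thus 1.47-fold above DMSO, and JQ1-B was close to DMSO on the CPM scale. CDK4 was at 184 and 118 CPM, lower on both scales, and CDK6 at 16.8 and 17.5 CPM. RB1 was at 8.38 and 12.7 CPM and CCNE1, cyclin E1, at 6.5 and 4.02 CPM, both under the 20 CPM limit.

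Matrix and growth factor genes were on the higher side. Of 14 collagens, laminins and matrix proteins, 11 were above the median gene, with a median of 0.85 log2, and LAMA5 (laminin alpha 5) was at 10.4 CPM in DMSO and 24.4 CPM in JQ1-A. The list was not uniform, since COL8A1 (46.7 and 18.5 CPM) and LAMB3 (22.8 and 7.91 CPM) were over 2-fold lower. EGFR ligands and MAPK feedback genes had a median of 0.70 log2, with 12 of 13 above the median gene. SPRY2, a feedback inhibitor of receptor tyrosine kinases, was at 16.2 and 37.7 CPM, DUSP4, a MAP kinase phosphatase, at 20.6 and 47.5 CPM, and EPHA2, an ephrin receptor, at 17.1 and 37.9 CPM. ETV4, a transcription factor of this pathway, went the other way, at 31.6 and 15.1 CPM. LAMA5, SPRY2 and EPHA2 reached 20 CPM in JQ1-A only, and COL8A1, LAMB3 and ETV4 in DMSO only, so the filter fixed their direction. YAP and TAZ targets had a median of 0.53 log2 (10 of 12 above), among them CTGF, a secreted matrix regulator, at 102 and 161 CPM.

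Other lists differed less or had few members. The list of NR2F receptors and genes set with them held 4 compared genes, all above the median gene. In DMSO and JQ1-A, besides NR2F1, these were RXRA (14.8 and 32.6 CPM), NR2F6 (45.1 and 42.8 CPM) and SOX9 (9.51 and 22.7 CPM). SOX9 is not a nuclear receptor gene. NR2F1, SOX9 and RXRA reached 20 CPM in JQ1-A only, so the filter fixed their direction. NR2F6, over 20 CPM in both, was lower on the CPM scale. ATF4 and unfolded protein response genes lay at -0.33 log2, with 18 of 20 below the median gene. PSAT1, an enzyme of serine synthesis, was at 38.7 and 14.5 CPM, and TRIB3, a pseudokinase induced by ATF4, at 40.6 and 15.7 CPM. Heat shock genes lay at -0.36 (11 of 13 below), with HSP90AA1, a chaperone gene, at 1421 and 722 CPM. The cancer-testis list lay at -0.37 (5 of 8 below). Of the drug transporters only ABCC3, an efflux pump gene, reached 20 CPM, with 47.4 CPM in DMSO and 88.4 CPM in JQ1-A.

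Mitochondrially encoded mRNAs were above the median gene in 12 of 12 compared genes, with a median of 0.80 log2, while the 60 nuclear oxidative phosphorylation genes lay at 0.04 (-0.32 on the CPM scale). MT-CYB was at 2418 and 4697 CPM. Cytosolic ribosomal protein genes, a list added after the values were seen, lay at 0.51 (76 of 78 above). Immediate early genes lay at 0.36 and polyadenylated histone genes at 0.36, both at about 0 on the CPM scale (-0.01 and -0.002). AKR1C and NRF2 targets lay at 0.18, S100 genes at 0.09 and BCL2 family genes at 0.02, and each of these 3 lists was below 0 on the CPM scale. Matrix proteases and inhibitors (0.40), IGF binding proteins and receptors (0.45) and epithelial and mesenchymal identity genes (0.37) were above the median gene, while tubulins (-0.21), glycolysis and hypoxia genes (-0.12) and cholesterol synthesis genes (-0.07) were below it. In JQ1-B over pre-treatment, tubulins (0.09) and glycolysis and hypoxia genes (0.26) were above the median gene instead. PGK1, a glycolytic enzyme on the X chromosome, was at 676 CPM in DMSO and 245 CPM in JQ1-A.

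**Figure D3:**
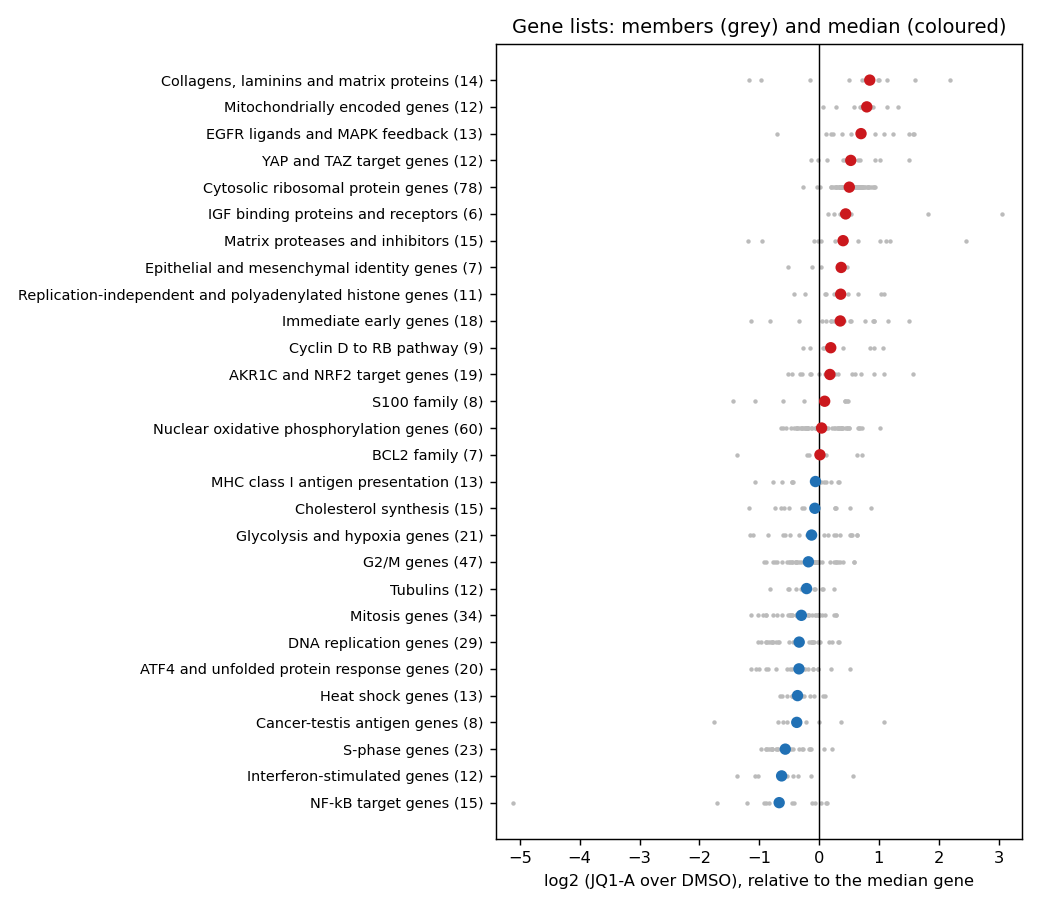
Log2 ratio of JQ1-A over DMSO, relative to the median gene (x axis, 0 is the median gene), for the 28 lists with at least 5 members compared. Grey points are member genes, coloured points list medians, and numbers in brackets the members compared. NF-kB targets (-0.67) lie lowest and collagens, laminins and matrix proteins (0.85) highest.

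Whether all cells of the JQ1-A library carried the response was asked with genes chosen in the other pair of libraries. A score was computed for each thinned cell as the log2 ratio of UMIs of the 179 genes higher in JQ1-B over pre-treatment to UMIs of the 147 lower ones, leaving out 9 higher genes of at least 1000 CPM. The median score was 2.23 in JQ1-A (5th to 95th percentile 1.22 to 3.26) and 0.094 in DMSO (-0.62 to 0.89). No JQ1-A cell lay at or below the DMSO median, 5 of 650 (0.769%) lay at or below the DMSO 95th percentile, and 81 (12.5%) at or below the highest DMSO cell. A median JQ1-A cell had 155 UMIs of the first set and 32 of the second, against 100 and 94 in a median DMSO cell.

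**Figure D4:**
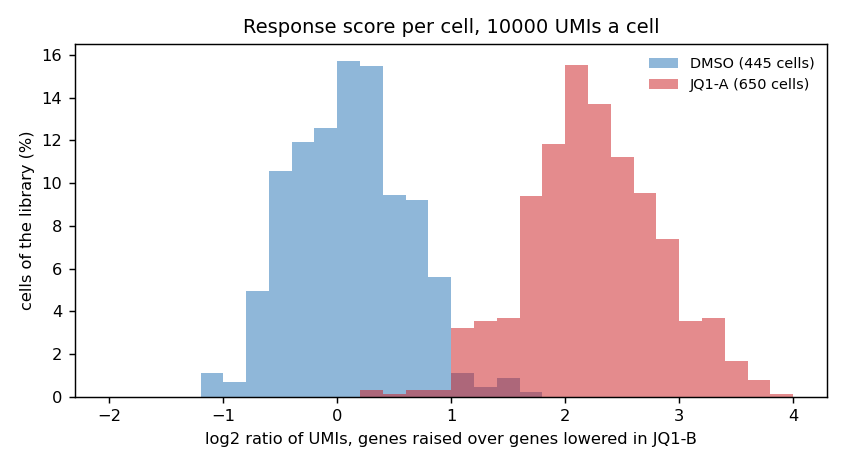
Distribution of the response score over cells thinned to 10000 UMIs, as a percent of each library's cells (y axis), for 445 DMSO and 650 JQ1-A cells. The x axis is the log2 ratio of UMIs (1 added to each sum) of genes higher to genes lower in JQ1-B over pre-treatment. The JQ1-A cells form a single shifted distribution around 2.23, with 12.5% of them inside the DMSO range.

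Variation between cells was larger in JQ1-A for most genes. For 1806 genes averaging 0.5 UMI or more per thinned cell in each of the 2 libraries, the CV squared (variance over squared mean) in excess of counting noise had a median of 0.162 in JQ1-A and 0.0994 in DMSO, and it was higher in JQ1-A for 75.3% of them. Among cells called G1 the medians were 0.156 and 0.114, with 62.9% of genes higher in JQ1-A. Among these 1806 genes the gains were largest for SQSTM1, an autophagy receptor (1.68 in DMSO, 5.15 in JQ1-A), IL8 (0.835 and 4.79), DKK1, a Wnt inhibitor (1.27 and 3.56), CXCL2 (0.821 and 2.55) and COL1A1, a fibrillar collagen (1.44 and 3.13). IL8 thus had a lower mean, 2.13 against 8.86 UMIs per thinned cell, spread less evenly over cells. The losses among them were largest for FN1 (2.37 in DMSO, 1.06 in JQ1-A), ZFP36, an mRNA-decay factor (1.80 and 0.499), CTGF (2.07 and 1.06), ID1, a transcriptional inhibitor (1.70 and 0.692), and SDC4, a heparan sulfate proteoglycan (0.952 and 0.356). Of the gains, SQSTM1, IL8, CXCL2 and COL1A1 had lower CPM in JQ1-A than in DMSO. Of the losses, FN1, ZFP36 and CTGF had higher CPM, and ID1 and SDC4 lower. Whether shifts in mean or the pooling of cultures have a part in the variation was not tested.

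The 659 JQ1-A cells that passed the filter were clustered on 1 random part of their UMIs and described on the other part. Cluster 1 (374 cells, 56.8%) was led, against the rest of the library, by CHAF1A (3.85-fold), MELK (3.26-fold) and CDC6 (3.13-fold). Cluster 2 (199 cells, 30.2%) was led by C11orf96 (5.01-fold), ADIRF (3.04-fold) and RPS6KA2 (3.03-fold), and 74.6% of its cells were called G1. Cluster 3 (86 cells, 13.1%) was led by the noncoding RP11-412H8.2 (26.7-fold), the cancer-testis antigen gene CTAG2 (20.4-fold) and the collagen receptor gene DDR2 (7.66-fold). These leading genes define the clusters and are no finding between libraries. Clusters from the other part of the UMIs had an adjusted Rand index of 0.448 with these, so cell membership was loose.

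The genes with the largest differences from DMSO were then read in each of the 3 clusters. They had been chosen by ratios over all JQ1-A cells, those of the clusters included, so part of the agreement was met by the choice. Against all DMSO cells, the 15 genes with the lowest ratios were at least 2-fold lower in each cluster, and IL32 had ratios of 0.0315, 0.00609 and 0.00866. The 15 with the highest ratios were at least 2-fold higher in clusters 1 and 2, and 10 of them were in cluster 3. HTRA1 was at 5.72 CPM in cluster 3, near the 6.87 CPM of DMSO, and IRS2 had a ratio of 1.24 there. Cluster values use only a part of the UMIs. Those of a few CPM or less, as of IL32 and HTRA1 in cluster 3, rest on few UMIs and are given without intervals. IL8 was at 67.5 CPM in cluster 3, below the 207 CPM of the whole JQ1-A library.

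Genes of the X chromosome were lower in JQ1-A along most of its length. Their median was -0.41 log2 relative to the median gene over 189 genes, with 149 (78.8%) below it, against 48.8% of genes on autosomes. JQ1-B over pre-treatment gave -0.44 and DMSO over pre-treatment 0.07. No autosome lay as far from 0, the nearest being chromosome 4 at -0.22 (166 genes) and chromosome 20 at 0.21 (137 genes), of which JQ1-B over pre-treatment gave -0.18 and 0.06. In windows of 10 Mb along the X (GRCh37), all 12 windows with at least 5 genes had medians below 0. Between 10 and 150 Mb the median was -0.53 over 151 genes, and in the last window, from 150 Mb, it was -0.05 over 36 genes.

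The X chromosome share was then counted in each thinned cell, over 562 X genes, leaving out 7 of at least 1000 CPM. Its median was 2.1% of nuclear UMIs in DMSO (5th to 95th percentile 1.16 to 2.74) and 1.21% in JQ1-A (0.823 to 1.96), with 1.95% in pre-treatment and 1.16% in JQ1-B. The libraries without drug had a tail of cells toward low shares, and most JQ1 cells lay within the span of that tail. With a boundary at 1.5%, set after the values were seen, 17.8% of DMSO cells (14.3 to 21.6) and 25.4% of pre-treatment cells lay below it, against 77.7% of JQ1-A cells (74.3 to 80.8) and 85.3% of JQ1-B cells. The boundary does not part the cells into classes, as 6.97% of DMSO cells and 12.2% of JQ1-A cells lay within 0.1 of the boundary. The difference held within each phase call, with medians of 1.91% in DMSO and 1.16% in JQ1-A among cells called G1 and of 2.19% and 1.29% among those called G2/M. Within JQ1-A, 94.9% of cluster 2 cells, 77.0% of cluster 1 cells and 39.8% of cluster 3 cells lay below 1.5%.

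**Figure D5:**
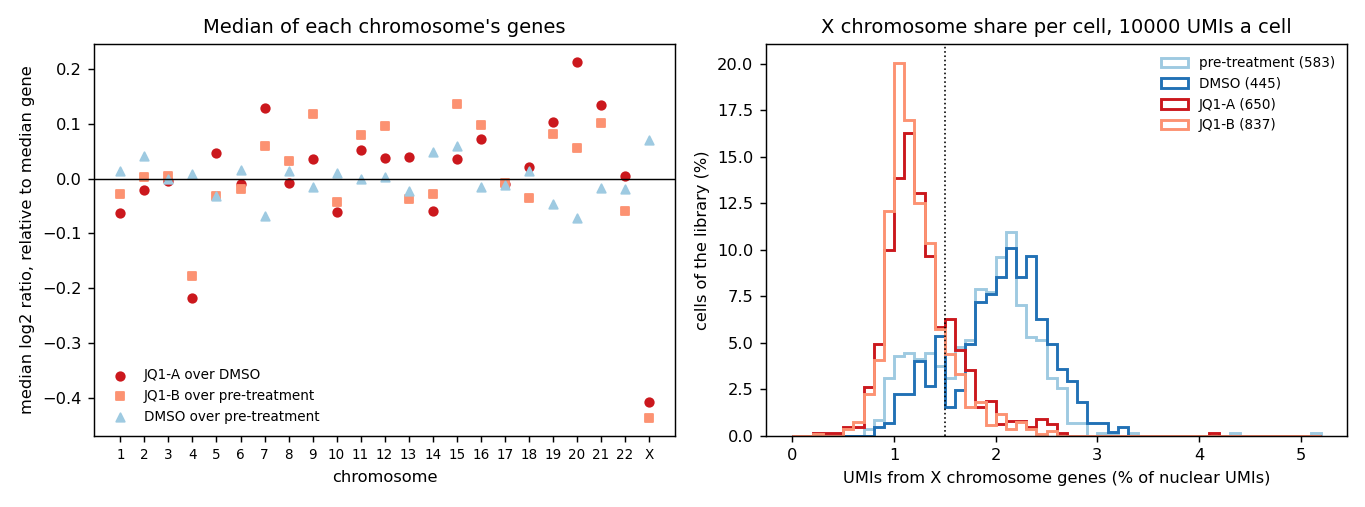
Left, median log2 ratio of the genes of each chromosome, relative to the median gene, for JQ1-A over DMSO, JQ1-B over pre-treatment and DMSO over pre-treatment. Right, percent of each library's cells (y axis) by the share of nuclear UMIs from X chromosome genes (x axis), with a dotted line at 1.5%. The X lies at -0.41 and -0.44 in the 2 JQ1 pairs and at 0.07 in the pair without drug, and 77.7% of JQ1-A cells but 17.8% of DMSO cells lie left of the line.

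The genes with the largest differences between the libraries had been chosen over all cells, so part of their agreement in any subset was met by that choice. They were read again among cells of low X share. With 505 such JQ1-A cells and 79 such DMSO cells, the 15 genes with the lowest ratios were all at least 2-fold lower and 14 of the 15 with the highest ratios at least 2-fold higher, the exception being CXXC5 at 1.5-fold (1.05 to 2.20). IL32 was at 145 CPM in low-share DMSO cells and 1.6 CPM in low-share JQ1-A cells. NR2F1 was at 8.81 CPM in low-share DMSO cells, above the 2.32 CPM of the other DMSO cells, and at 33.6 CPM in low-share JQ1-A cells, so its ratio was 3.82 there (2.32 to 6.74) and 10.7 in the other cells (6.58 to 18.3). FN1 (94.1 against 65.1 CPM) and VSTM2L (39.6 against 24.1 CPM) were also higher in the low-share DMSO cells than in the other DMSO cells, while TMEM98 was lower (8.81 against 28.1 CPM). IL8 was at 779 CPM in low-share DMSO cells and 211 CPM in low-share JQ1-A cells. Whether the X share itself has a part in any of these values was not tested.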

How the data were processed

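Single-cell libraries were made with the 10x Chromium 3' v2 chemistry. The deposited table holds whole-number UMI counts for each gene in each cell, made by the authors with Cell Ranger on hg19, with no scaling applied to these counts. The processing notes also name Seurat. Each barcode was assigned to its library by the deposited metadata. Members, gene lists and alternatives were chosen with earlier results of these data known.

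UMIs were added up over the cells of a library, since cells do not stand for replicates, and divided by the library total (CPM). With 1 library for each treatment within an experiment no test was made. Ratios carry 95% exact conditional binomial intervals, CPM exact Poisson intervals and shares exact binomial intervals, all for counting error only. A count of 0 was set to 3 UMIs. Genes of at least 20 CPM in the higher library were compared, and relative ratios were divided by that of the median gene. For a gene that reached 20 CPM in 1 library only, this filter fixed the direction of its ratio on the CPM scale. In simulated counts with known folds, checked first, the ratios were recovered.

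Named genes were the 15 highest and 15 lowest ratios, the 4 members of each list with the largest ratios, study genes and drug targets (of which 1 is not reported here), the 5 largest gains and losses of variation, the 3 leading genes of each cluster, and genes moving oppositely in JQ1-B over pre-treatment (none). NFKBIA, CXCL3, IER3, VIM and the other identity markers, outside these, were named after their values were seen, as was every result on the X chromosome beyond its median.

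For values per cell, the study's cell filter (1 to 15% mitochondrial UMIs, at least 2000 genes) was applied and each cell thinned to 10000 UMIs, which left out 9 JQ1-A and 7 DMSO cells. Doublets were not called, and leaving out cells above the 95th percentile of UMIs is among the alternatives. Clusters used 2000 variable genes, 20 principal components and Leiden resolution 0.4 (scanpy 1.11.5, Python 3.11.15), with UMIs, mitochondrial share and the S minus G2/M score regressed out. Phases used the gene lists of Seurat 5.3.0. Alternatives used edgeR 4.0.16 (TMM) and DESeq2 1.42.0 (size factors), for scaling only, in R 4.3.3. Gene positions are from a GENCODE annotation on GRCh37, the build of hg19, and were found for 98.4% of compared genes, with older symbols matched through RefSeq. Promoters are from RefSeq on GRCh38.p14.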

Additional observations from a re-analysis of the deposited data

How the results depend on the processing

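The counts of genes past 2-fold, 51 higher and 438 lower, depended on the scaling. They were 141 and 156 with TMM, 117 and 181 with DESeq2 size factors, and 166 and 112 relative to the median gene, a setting added after the data were seen. They also depended on the filter, with 163 and 814 at 5 CPM, 8 and 99 at 100 CPM, and 914 and 2291 with no filter. They were between 50 and 57 higher and between 391 and 474 lower without mitochondrial genes, with the study's cell filter, without the cells of most UMIs, with thinned cells, with equal cell numbers and with the mean of cells. Single clusters of JQ1-A cells against all DMSO cells gave 42 and 237, 122 and 1291, and 128 and 715. The number of clusters was 1 at resolution 0.2 and 7 at 0.8, against 3. Of 1296 ratios of 81 named genes past 2-fold, 801 stayed within their counting interval, 494 moved out of it and 1 turned direction, HTRA1 in cluster 3 (ratio 0.833). Of 336 medians of lists, 330 moved by less than 0.3 log2 and none of a list 0.3 or more from the median gene changed sign. The G1 share of JQ1-A cells was 46.6% with all UMIs and that of DMSO cells 17.1%. Depth limits genes of a few CPM most. No paired analysis was possible because each treatment had 1 library within an experiment, and nothing could be left out as a replicate.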
